A study of Homo sapiens with 22 samples.

Results

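The secreted ligands of the VEGF and angiopoietin families were followed across 22 RNA-seq libraries of human renal cancer cell lines. The set holds 8 genes, chosen by name: the VEGF family ligands VEGFA, VEGFB, VEGFC and PGF, the angiopoietins ANGPT1 and ANGPT2, and the angiopoietin-like genes ANGPTL2 and ANGPTL4. Each of them was listed once among the 25343 gene symbols of every library. The study profiled messenger RNA in cell culture models of metastasis, and the cells were grown alone in dishes, with no host tissue. The metastatic derivatives were RNA-Seq_786-M1A (2 libraries), selected from the 786-O line, and OS-LM1 (2 libraries), a lung-metastatic derivative of another renal carcinoma line. The parental line 786-O had 2 libraries. The descent of these lines is background knowledge, since their labels give only the line names and the cancer type. The plots leave out the assay prefix of the name RNA-Seq_786-M1A. Another 16 libraries were of RNA-Seq_786-M1A carrying a CRISPR interference (CRISPRi) system, where a catalytically inactive Cas9 fused to a repressor is led to DNA by a guide. Their guides were iMAE-1.1 (4 libraries), iMAE-1.2 (4 libraries), iMAE-126 (2 libraries) and the non-targeting control SC (6 libraries). The labels name these guides but not the DNA they target, and do not say whether cells are clones or whether replicates are separate cultures. P-values therefore measure the spread between these libraries, which may be technical. Where leaving out a replicate leaves a group with 1 library, the spread comes from the other groups only.

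VEGF ligands are secreted dimers that act mainly on endothelial cells. VEGFA signals through the receptors FLT1 and KDR and drives the sprouting of blood vessels. PGF and VEGFB bind FLT1, and VEGFC binds FLT4 and drives lymphatic vessel growth. The neuropilins NRP1 and NRP2 are co-receptors that other cells carry too. ANGPT1 activates the endothelial receptor TEK and steadies vessels, whereas ANGPT2 usually opposes it. ANGPTL2 is a secreted inflammatory and angiogenic factor that does not bind TEK. ANGPTL4 inhibits lipoprotein lipase and acts on vessel permeability. Clear cell renal carcinoma often loses VHL, the ubiquitin ligase subunit that marks hypoxia-inducible factors (HIF) for destruction, and VEGFA and ANGPTL4 are known HIF targets. The 786-O line is known to lack functional VHL and to rely on EPAS1 (HIF-2α).

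The bases just before the RefSeq starts of ANGPTL4 and PGF are shown because these low-level genes differed most in fold between the libraries of RNA-Seq_786-M1A and 786-O among the ligands that were higher. They are 250 bases long, read 5′ to 3′ on the gene's strand, from RefSeq on GRCh38.p14, a build other than the hg19 that the submitters' processing notes name. Capitals mark the letters ACGTG or GCGTG, the core of the HIF-binding element, on either strand (CACGT or CACGC when reversed), and TATAAA on the gene's strand. ANGPTL4 is on the plus strand at chr19:8363905-8364154. PGF has 2 table entries, which overlap, on the minus strand at chr14:74955765-74956014 and chr14:74955598-74955847.
ANGPTL4: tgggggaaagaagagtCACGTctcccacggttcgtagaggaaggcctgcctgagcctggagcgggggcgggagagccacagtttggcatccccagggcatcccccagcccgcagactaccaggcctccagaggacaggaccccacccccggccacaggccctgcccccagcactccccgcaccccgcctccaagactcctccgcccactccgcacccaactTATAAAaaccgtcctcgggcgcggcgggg
PGF, outer start: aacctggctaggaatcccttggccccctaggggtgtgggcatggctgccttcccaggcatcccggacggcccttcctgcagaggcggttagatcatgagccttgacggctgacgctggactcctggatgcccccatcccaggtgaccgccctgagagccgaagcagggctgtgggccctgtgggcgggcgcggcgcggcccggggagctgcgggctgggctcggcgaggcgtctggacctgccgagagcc
PGF, inner start: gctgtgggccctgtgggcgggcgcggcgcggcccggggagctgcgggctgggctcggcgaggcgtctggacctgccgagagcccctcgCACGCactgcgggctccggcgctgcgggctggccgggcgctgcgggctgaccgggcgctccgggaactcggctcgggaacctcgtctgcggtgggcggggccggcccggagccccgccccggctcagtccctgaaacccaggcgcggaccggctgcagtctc
ANGPTL4 had a reversed ACGTG 234 bases and a TATAAA 29 bases before its start. The inner PGF window had a reversed GCGTG 162 bases before its start, and the outer window had none of the 3 motifs. Of 35116 promoter windows of this length, 43.2% held ACGTG or GCGTG and 10.7% held TATAAA, each on either strand and at any position. The share with TATAAA on the gene's strand alone, or near the start, was not counted. The ACGTG and GCGTG matches are common letters, and all of these matches describe sequence only. Entries were also read for VEGFB, VEGFC and ANGPTL2, and none of this length was found for VEGFA. ANGPT1 and ANGPT2 were left out by their chromosome, so whether they have entries was not examined. VEGFC held a reversed GCGTG 59 bases and VEGFB a GCGTG 61 bases before the start.

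Total expected counts, in units of 1e6, were between 9.06 and 52.7 per library. The CRISPRi libraries fell into 2 sets by the mean length of the genes that their reads came from. Set A held both iMAE-126 libraries with SC replicates 1 and 2 (3520 to 3702 bases). Set B held SC replicates 3 to 6 with every library of iMAE-1.1 and of iMAE-1.2 (3272 to 3400 bases). The first principal component separated the sets and held 60.2% of the variance over 11114 genes. No label names these sets, so iMAE-1.1 and iMAE-1.2 were compared with SC replicates 3 to 6, and iMAE-126 with SC replicates 1 and 2. Markers fitted the renal label: PAX8, a renal lineage factor, was at 87.1 to 262 TPM, and the renal carcinoma markers summed to 5680 to 9612 TPM, mostly VIM, which is not specific to kidney (4592 to 8350 TPM), with all 6 listed genes detected except CA9, which was at 0 in some libraries. The 6 endothelial markers summed to 0.97 to 4.15 TPM, with CDH5 at most 0.02 TPM and VWF at most 0.04 TPM. Of the leukocyte markers CD3E was at 0 in all libraries and PTPRC at most 0.7 TPM, while CD68, which tumour cells can express, was at 17.6 to 94.3 TPM. The 5 fibroblast and pericyte markers summed to 10.2 to 73.2 TPM, mostly ACTA2, with DCN at most 0.13 TPM.

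VEGFA dominated the ligand RNA in every library. TPM values, transcripts per 1e6 transcripts, correct for gene length and allow genes to be set side by side. VEGFA was at 112 to 466 TPM and made up 66.5% to 85.8% of the summed TPM of the 8 genes. VEGFB, at 25.0 to 45.9 TPM, and VEGFC, at 21.4 to 39.9 TPM, followed at similar levels. PGF was at 0.25 to 15.8 TPM and ANGPTL4 at 0.65 to 5.61 TPM. ANGPTL2 reached at most 0.89 TPM and ANGPT2 at most 0.87 TPM. ANGPT1 was at 0 in 18 of the 22 libraries and reached at most 0.46 TPM. The counts behind these levels were 2312 to 24444 for VEGFA but 3 to 653 for PGF, 8 to 221 for ANGPTL4 and 0 to 65 for ANGPTL2. Fold changes of the rare ligands are therefore less precise. Counts of ANGPT2 were fractional in all 22 libraries, and its exons share 78 bases with MCPH1 on the opposite strand in GENCODE v29, so its values are uncertain: whether reads were counted by strand was not stated in the material at hand.

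The summed TPM of the 8 ligands was 424 and 542 in OS-LM1, 422 and 432 in RNA-Seq_786-M1A, and 187 and 203 in 786-O. It was 287 and 321 TPM in iMAE-126, 221 to 316 TPM in iMAE-1.2, 232 to 265 TPM in iMAE-1.1 and 162 to 274 TPM in SC. Both metastatic derivatives thus stood above every 786-O and CRISPRi library in summed level. By group mean in TPM, VEGFA ran from OS-LM1 (413) through RNA-Seq_786-M1A (337), iMAE-126 (230), iMAE-1.2 (203), iMAE-1.1 (186) and SC (148) to 786-O (135), and neighbours from iMAE-126 downwards overlapped. The highest mean VEGFB was in iMAE-126 (44.3 TPM), which did not overlap with the next group. The means of the other 6 groups lay at 29.4 to 34.4 TPM, and these groups overlapped. The SC mean spans both library sets, and SC replicates 1 and 2 had VEGFB at 39.33 and 35.65 TPM. VEGFC (39.0 TPM) and PGF (15.4 TPM) were highest in RNA-Seq_786-M1A without overlap with the next group, OS-LM1. For ANGPTL4, RNA-Seq_786-M1A (4.93 TPM), OS-LM1 (4.54 TPM) and iMAE-126 (4.42 TPM) overlapped, and the group next in order, iMAE-1.2 (1.98 TPM), did not overlap with iMAE-126. SC replicates 1 and 2, in the same library set as iMAE-126, had ANGPTL4 at 3.54 and 3.69 TPM. They overlapped with the 3.49 and 5.34 TPM of iMAE-126, so this gap also lies between the library sets. ANGPTL2 was highest in RNA-Seq_786-M1A (0.64 TPM) and OS-LM1 (0.63 TPM), which overlapped, and ANGPT2 was highest in iMAE-1.2 (0.70 TPM), with every neighbour overlapping.

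**Figure D1:**
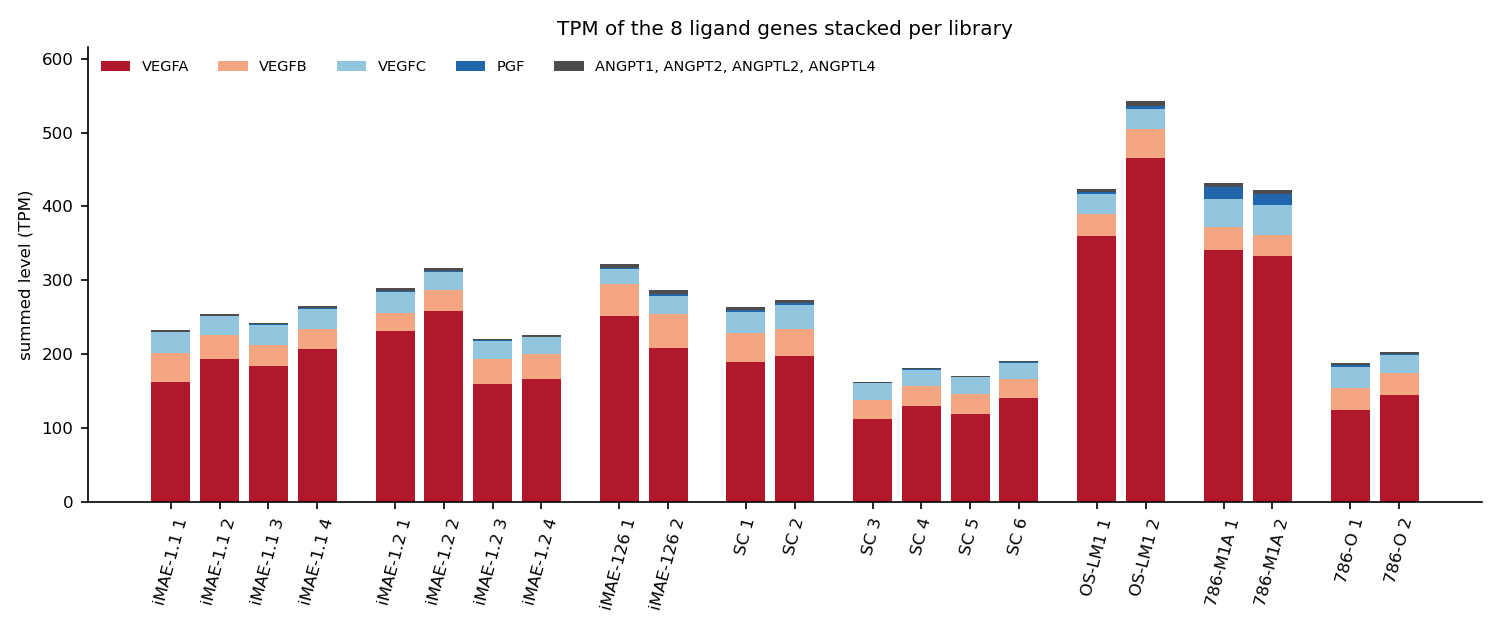
TPM of the 8 ligand genes stacked for each of the 22 libraries (y axis, summed TPM from 0). VEGFA takes 66.5% to 85.8% of every bar, and the OS-LM1 and RNA-Seq_786-M1A bars, at 422 to 542 TPM, are the tallest.

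The first question was how the ligands differ between the metastatic derivative RNA-Seq_786-M1A and its parent 786-O. Of the 8 ligands, 5 rose and 1 fell in RNA-Seq_786-M1A, against 31% of all 16354 genes tested (14.7% higher and 16.3% lower). The 1 that fell, ANGPT1, passed the filter on low counts through 786-O alone and could only be called as a fall. Levels between libraries are given in CPM, counts per 1e6 counts, after normalisation for composition, tests are edgeR quasi-likelihood tests, and a gene was called at a Benjamini-Hochberg adjusted p under 0.05 over all genes tested. The median log2 fold change was 1.01 over the 8 ligands and -0.02 over all genes. Where groups are said not to overlap, the share of all genes without overlap was not counted, so this describes levels only.

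VEGFA had 542 and 520 CPM in RNA-Seq_786-M1A, against 182 and 205 CPM in 786-O. Both RNA-Seq_786-M1A libraries lay far above both 786-O libraries, with a log2 fold change of 1.42 ± 0.14 (SE, adjusted p = 0.000176). PGF had 14.5 and 13.7 CPM in RNA-Seq_786-M1A, against 1.64 and 0.970 CPM in 786-O. This was the largest rise among the ligands, at a log2 fold change of 3.40 ± 0.24 (adjusted p = 3.17e-05), and RNA-Seq_786-M1A was the only one of the 7 groups with PGF above 3 CPM in any library. VEGFC, the lymphatic ligand, had 38.7 and 40.3 CPM in RNA-Seq_786-M1A, against 27.1 and 23.9 CPM in 786-O. Its rise was smaller, at 0.59 ± 0.11 on the log2 scale (adjusted p = 0.00393). VEGFB had 27.9 and 24.6 CPM in RNA-Seq_786-M1A, against 24.1 and 23.2 CPM in 786-O. The VEGFB levels did not overlap, but 0.11 ± 0.14 on the log2 scale was not enough to be called (adjusted p = 0.587).

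Among the angiopoietins, ANGPT1 was the one ligand that fell in RNA-Seq_786-M1A, with 1 count in its 2 libraries together, against 67 counts in 786-O. That is 74.8 times lower per mapped count, with a 95% interval from counting error of 13.0 to 2997. Because ANGPT1 passed the filter through 786-O alone, its call (adjusted p = 0.00161 by edgeR) adds no support to these counts. 786-O, with 0.821 and 0.896 CPM, was the only group with ANGPT1 above 1 count in each library. ANGPT2 had 0.555 and 0.811 CPM in RNA-Seq_786-M1A, against 0.662 and 0.896 CPM in 786-O, which overlapped (log2 fold change -0.23 ± 0.36, adjusted p = 0.663). ANGPTL4 had 4.90 and 4.10 CPM in RNA-Seq_786-M1A, against 1.01 and 0.921 CPM in 786-O. It rose by 2.18 ± 0.30 on the log2 scale (adjusted p = 0.00103). ANGPTL2 had 0.688 and 1.55 CPM in RNA-Seq_786-M1A, against 0.424 and 0.224 CPM in 786-O. It rose by 1.74 ± 0.51 (adjusted p = 0.0337), a call that was lost without RNA-Seq_786-M1A replicate 2 (1.05, adjusted p = 0.238), without 786-O replicate 1 (adjusted p = 0.0724) or without 786-O replicate 2 (adjusted p = 0.208). Over its 9 alternatives the adjusted p of ANGPTL2 was 0.00433 to 0.238. VEGFC lost its call without 786-O replicate 2 (0.50, adjusted p = 0.0718), within a range of 1.18e-06 to 0.0718 over 12 alternatives.

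**Figure D2:**
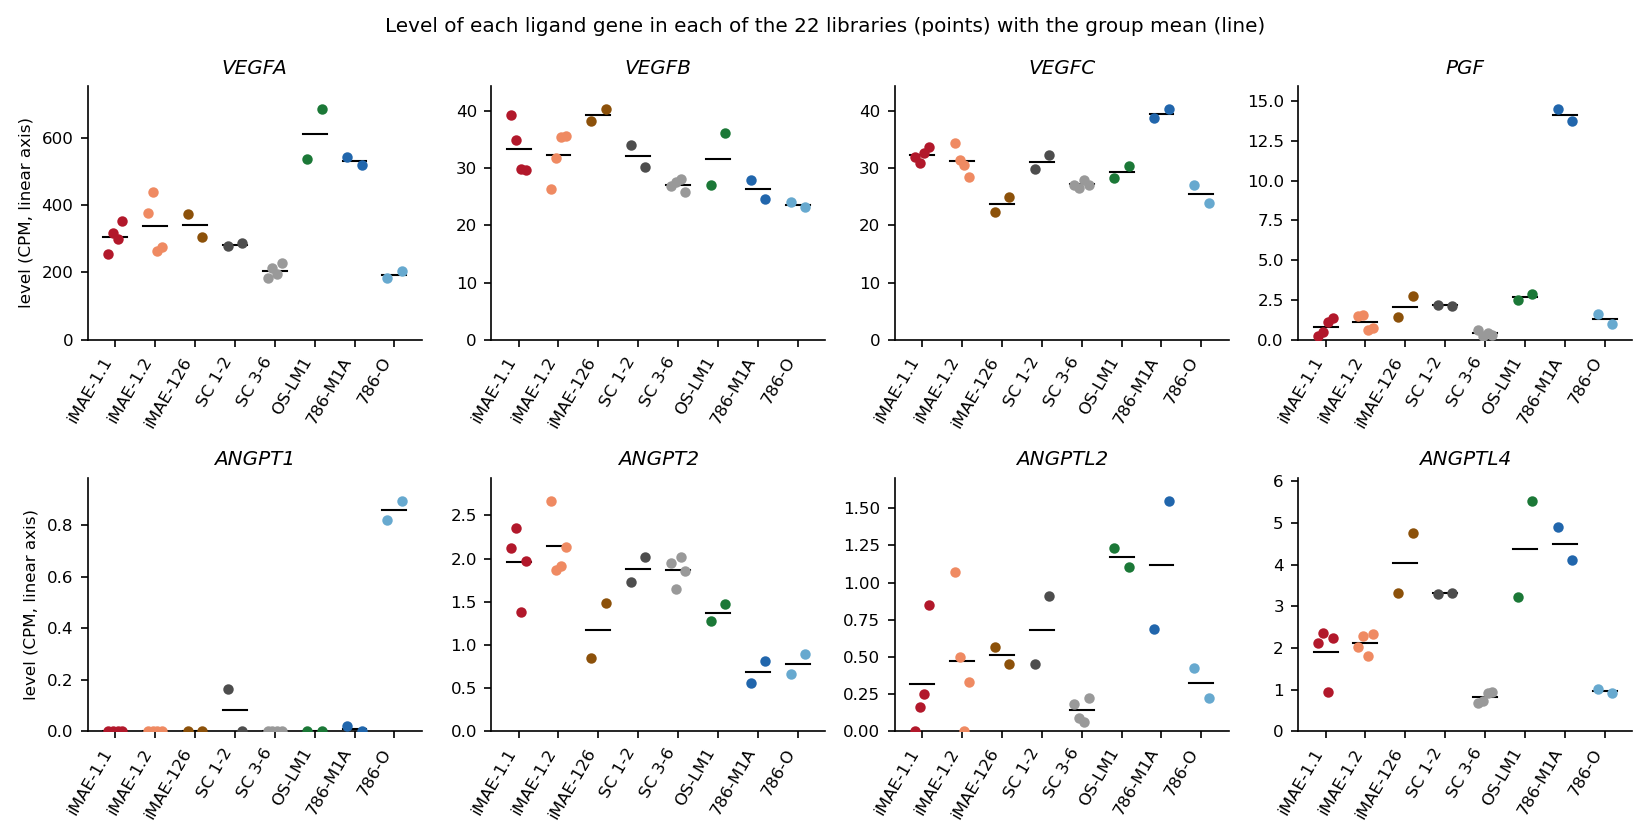
CPM of each ligand gene (y axis, linear from 0) in the 22 libraries, one panel per gene, with points for libraries and a line for the group mean; SC replicates 1 and 2 and SC replicates 3 to 6 are drawn apart. PGF stands out in RNA-Seq_786-M1A at 13.7 to 14.5 CPM, ANGPT1 is above 0.2 CPM in 786-O alone, and ANGPTL4 and PGF are higher in SC replicates 1 and 2 than in SC replicates 3 to 6.

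OS-LM1, from another parental line, was set beside both. Against 786-O, 5 ligands rose and 1 fell, where 63.6% of all genes passed (30.4% higher and 33.3% lower), so this count is read against a high background. VEGFA had 537 and 685 CPM in OS-LM1 and the same 182 and 205 CPM in 786-O, a rise of 1.63 ± 0.14 (adjusted p = 2.79e-05). ANGPTL4, with 3.22 and 5.53 CPM in OS-LM1, rose by 2.13 ± 0.31 (adjusted p = 0.000502). PGF, with 2.51 and 2.89 CPM in OS-LM1, rose by 1.01 ± 0.27 (adjusted p = 0.0106), and ANGPTL2, with 1.23 and 1.11 CPM, rose by 1.83 ± 0.54 (adjusted p = 0.0176). ANGPT1 had 0 counts in OS-LM1, against 67 counts in 786-O. That is at least 11.9-fold lower when 3 counts over the OS-LM1 group are taken as the floor. ANGPT1 was the 1 that fell, and here too it could only be called as a fall (adjusted p = 0.00123 by edgeR). VEGFB, with 27.1 and 36.2 CPM in OS-LM1, rose by 0.38 ± 0.15 (adjusted p = 0.0476). VEGFC, with 28.3 and 30.4 CPM, differed by 0.17 ± 0.11 (adjusted p = 0.201), and ANGPT2, with 1.27 and 1.48 CPM, by 0.77 ± 0.37 (adjusted p = 0.0956). Neither of these passed. No OS-LM1 library overlapped with 786-O for VEGFC or ANGPT2, but the share of all genes without overlap was not counted. Without 786-O replicate 2, PGF (0.66, adjusted p = 0.0647), ANGPTL2 (1.42, adjusted p = 0.105) and VEGFB (0.35, adjusted p = 0.201) lost their calls. VEGFB also lost its call without 786-O replicate 1 (adjusted p = 0.146) or OS-LM1 replicate 2 (0.18, adjusted p = 0.166) and in 4 of its other alternatives, with adjusted p from 5.97e-05 to 0.237 over all 12. The adjusted p over the alternatives was 0.0023 to 0.0647 for PGF and 0.00581 to 0.105 for ANGPTL2.

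Between the 2 metastatic derivatives, 3 of the 8 ligands differed, against 68.7% of all genes (34.4% higher and 34.3% lower), a smaller share than the background. PGF (log2 fold change -2.39 ± 0.23, adjusted p = 4.83e-05) and VEGFC (-0.42 ± 0.11, adjusted p = 0.0079) were lower in OS-LM1 than in RNA-Seq_786-M1A, without overlap. ANGPT2 was higher in OS-LM1, by 1.01 ± 0.37 (adjusted p = 0.0377). VEGFA (0.21 ± 0.13, adjusted p = 0.194), VEGFB (0.27 ± 0.15, adjusted p = 0.13), ANGPTL2 (0.09 ± 0.47, adjusted p = 0.879) and ANGPTL4 (-0.06 ± 0.27, adjusted p = 0.86) did not pass, and their libraries overlapped. The ANGPT2 call was lost with DESeq2 (adjusted p = 0.0792), with no filter on low counts (adjusted p = 0.0566), and without RNA-Seq_786-M1A replicate 1 (0.74, adjusted p = 0.175), OS-LM1 replicate 1 (adjusted p = 0.0722) or OS-LM1 replicate 2 (adjusted p = 0.123), in a range of 0.0241 to 0.175 over 12 alternatives. VEGFC lost its call without RNA-Seq_786-M1A replicate 2 (adjusted p = 0.0591; range 0.000213 to 0.0591), and VEGFA (0.36, adjusted p = 1.89e-05) and VEGFB (0.45, adjusted p = 0.000663) were called without OS-LM1 replicate 1, a refit with 1 OS-LM1 library, in which the spread came from the other groups only. Their ranges over 14 alternatives each were 1.89e-05 to 0.692 for VEGFA and 0.000663 to 0.643 for VEGFB. On log2(TPM + 1) with limma, the median of all genes moved to -0.23 for OS-LM1 versus 786-O and to -0.16 for OS-LM1 versus RNA-Seq_786-M1A, and the genes called against 786-O were 3478 higher and 6086 lower, where edgeR on counts gave 4965 higher and 5440 lower. The mean gene length of the libraries was 3401 and 3610 bases in OS-LM1, 3906 and 3957 bases in RNA-Seq_786-M1A and 3882 and 3888 bases in 786-O, and its part in these differences was not tested.

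**Figure D3:**
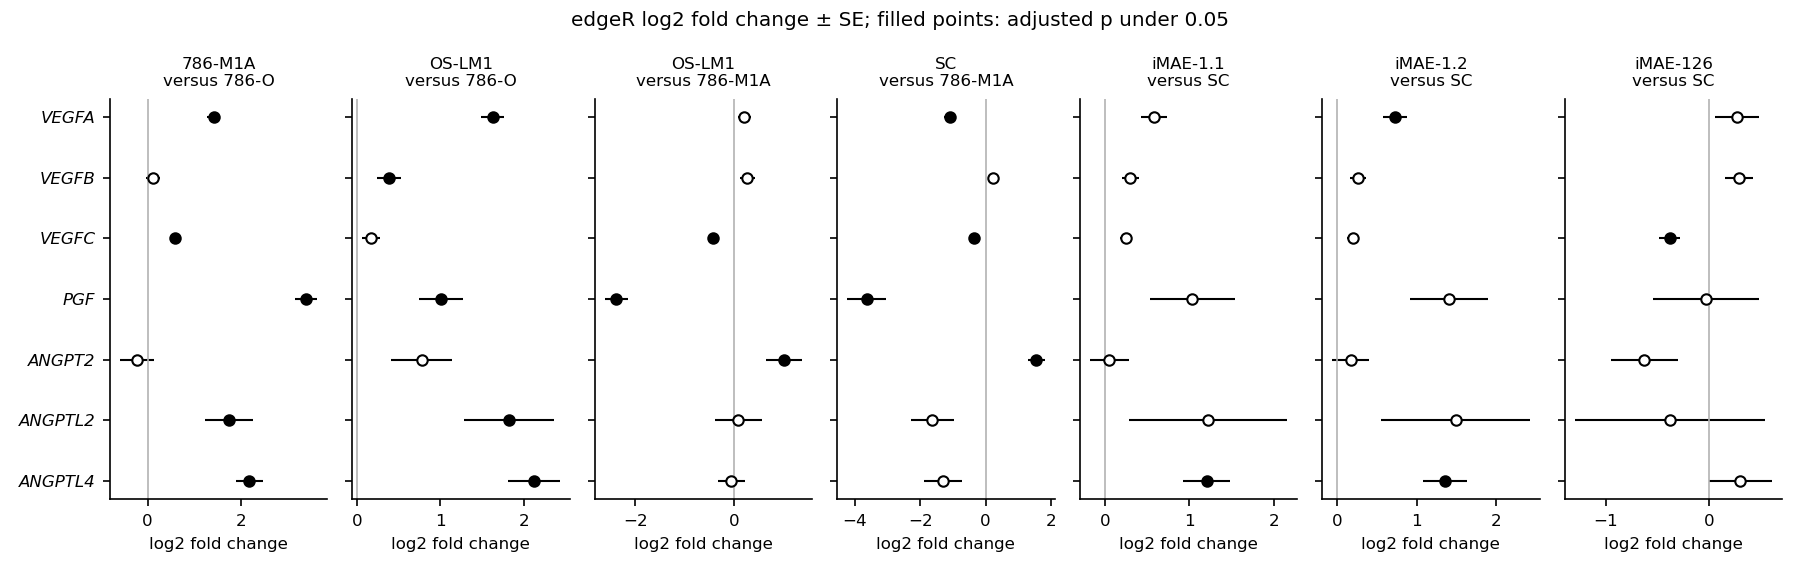
Log2 fold change (x axis) with its SE for 7 ligands (rows) in each of 7 comparisons (panels, each with its own scale); filled points passed at an adjusted p under 0.05. ANGPT1 is left out because its counts were 0 or near 0 outside 786-O. VEGFA, PGF, ANGPTL2 and ANGPTL4 are filled and right of 0 in both comparisons with 786-O.

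The genes around the ligands were taken from lists of receptors, ligand processing, inhibitors and HIF biology. Of 7 receptors and co-receptors, 5 were tested. NRP1 and NRP2 were abundant and KDR, TEK and TIE1 were near 0, at group means of at most 0.30 TPM. NRP1, a co-receptor of VEGFA and PGF, averaged 64.0 TPM in RNA-Seq_786-M1A, 125.6 TPM in 786-O and 66.0 TPM in OS-LM1. It fell by 1.01 ± 0.16 in RNA-Seq_786-M1A versus 786-O (adjusted p = 0.00224), the one receptor that passed there. FLT1 averaged 1.00 TPM in RNA-Seq_786-M1A and 1.36 TPM in 786-O (adjusted p = 0.29). Against 786-O, OS-LM1 had higher FLT1 (0.99) and FLT4 (1.47) and lower NRP1 (-0.69) and NRP2 (-1.38), with adjusted p between 0.000317 and 0.01.

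The counts of RNA-Seq_786-M1A versus 786-O that follow stand against the 31% of all genes that passed there. Of 10 genes of ligand processing and matrix binding, 4 rose and 2 fell. PLAU, the urokinase that activates plasmin, rose by 1.08 and the protease ADAMTS1 by 1.06. PCSK5, a proprotein convertase, fell by 4.50 and HPSE, the heparanase that cuts heparan sulphate, fell by 2.28 on the log2 scale. Of 8 endogenous inhibitors of angiogenesis, 6 were tested, 2 fell and none rose, a share close to that of all genes, with VASH1 (vasohibin) at -3.75 and COL18A1, the precursor of endostatin, at -0.38. Of 13 HIF-responsive genes, 5 rose and 3 fell, with a median log2 fold change of 0.15. LOX, which crosslinks collagen (3.66), and the prolyl hydroxylase EGLN3 (1.49) rose, while VLDLR (-1.22) and NDRG1 (-0.60) fell. Of 11 regulators, 3 rose and 2 fell: EPAS1 averaged 88.3 TPM in RNA-Seq_786-M1A and 60.5 TPM in 786-O (log2 fold change 0.62 ± 0.16, adjusted p = 0.0181), and HIF1A 4.16 TPM and 8.52 TPM (-0.96 ± 0.12, adjusted p = 0.000564). In OS-LM1 versus 786-O, 8 of the 13 HIF-responsive genes rose and 2 fell, where 63.6% of all genes passed. These included CA9, a carbonic anhydrase at 31.1 TPM in OS-LM1 and 0.14 TPM in 786-O, and LOX at 18.5 TPM in OS-LM1 and 1.18 TPM in 786-O.

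SC, the CRISPRi cells with a non-targeting guide, were then compared with RNA-Seq_786-M1A. In this comparison 7 ligands were tested, 3 fell and 1 rose in SC, against 53% of all 14769 genes tested (27.8% higher and 25.3% lower). The genes called numbered 7832, but 3035 without RNA-Seq_786-M1A replicate 1 and 1999 without replicate 2. VEGFA was at 184 to 288 CPM in SC, with a median of 220 CPM, and at 542 and 520 CPM in RNA-Seq_786-M1A. It fell by 1.097 ± 0.17 on the log2 scale (adjusted p = 0.00222), and no library overlapped. PGF was at 0.275 to 2.18 CPM in SC, with a median of 0.533 CPM, and at 14.5 and 13.7 CPM in RNA-Seq_786-M1A. It fell by 3.65 ± 0.59 (adjusted p = 0.00252), with no overlap. VEGFC fell by 0.37 ± 0.10 (adjusted p = 0.0164), and ANGPT2 rose by 1.55 ± 0.25 (adjusted p = 0.0025). ANGPT2 was at 1.65 to 2.02 CPM in SC, with a median of 1.90 CPM, and at 0.555 and 0.811 CPM in RNA-Seq_786-M1A. VEGFB (0.24, adjusted p = 0.137), ANGPTL2 (-1.63, adjusted p = 0.0673) and ANGPTL4 (-1.30, adjusted p = 0.0856) did not pass. ANGPT1 had 4 counts in SC, all in replicate 1, and 1 count in RNA-Seq_786-M1A, too few to be tested.

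The size of these differences depended on which SC libraries were used. The log2 fold change of PGF was -2.60 with SC replicates 1 and 2 and -5.02 with SC replicates 3 to 6. ANGPTL4 gave -0.34 (adjusted p = 0.22) with the first and -2.39 (adjusted p = 8.12e-11) with the second, and was called only with the second. VEGFA gave -0.81 and -1.32, and ANGPT2 gave 1.55 and 1.52, in the same order. VEGFB was higher with SC replicates 1 and 2 (0.40, adjusted p = 0.00862) and not called with SC replicates 3 to 6 (0.10, adjusted p = 0.278). These subsets called 51.2% and 79.1% of all genes tested, in that order. ANGPTL4 was also called without SC replicate 1 (-1.68, adjusted p = 0.0282) or replicate 2 (-1.62, adjusted p = 0.0299), in a range of 8.12e-11 to 0.355 over 18 alternatives. ANGPTL2 was called without SC replicate 2 (-2.21, adjusted p = 0.00983, range 0.00983 to 0.459), and VEGFC lost its call without RNA-Seq_786-M1A replicate 1 (adjusted p = 0.0776) or 2 (adjusted p = 0.125, range 5.6e-07 to 0.125). The library sets were defined among the CRISPRi libraries only, so RNA-Seq_786-M1A was not assigned to either. The vector cannot be told apart here from whatever else differs between these libraries, which no label names. On log2(TPM + 1) with limma the median of all genes was -0.23 and the genes called were 2251 higher and 4932 lower, where edgeR gave 4100 higher and 3732 lower.

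Within SC, with no targeting guide in either, replicates 1 and 2 differed from replicates 3 to 6 in 2 of 7 ligands, against 45.2% of all 15254 genes tested (23.1% higher and 22.1% lower). PGF had 2.18 and 2.15 CPM in SC replicates 1 and 2, against 0.610, 0.275, 0.456 and 0.281 CPM in replicates 3 to 6 (log2 difference 2.38 ± 0.52, adjusted p = 0.00103). ANGPTL4 had 3.30 and 3.32 CPM in SC replicates 1 and 2, against 0.671, 0.734, 0.912 and 0.955 CPM in replicates 3 to 6 (2.00 ± 0.30, adjusted p = 2.52e-05). Neither gene overlapped between the sets. VEGFA (0.46), VEGFB (0.25), VEGFC (0.19) and ANGPTL2 (2.11) were higher in value without passing, with adjusted p of 0.0511 to 0.0983. None of the 4 overlapped between the sets, but the share of all genes without overlap was not counted. VEGFA was called in 7 of its 13 alternatives (adjusted p = 9.6e-06 to 0.182 over all), among them DESeq2 (adjusted p = 0.0119) and the refit without SC replicate 6 (adjusted p = 0.0385). VEGFB was called in 3 of 13 (adjusted p = 0.00574 to 0.446) and VEGFC in 2 of 13 (adjusted p = 0.000308 to 0.363), and ANGPTL2 in 0 of 9 (adjusted p = 0.081 to 0.359). ANGPT2 differed by -0.01. Other genes of HIF biology moved with the sets: 9 of the 12 HIF-responsive genes tested were higher and 2 were lower in SC replicates 1 and 2, and EPAS1 averaged 46.0 TPM in them and 15.4 TPM in replicates 3 to 6 (1.31 ± 0.14, adjusted p = 1.31e-06). On log2(TPM + 1) the median of all genes was 0.21 and the genes called were 5669 higher and 1588 lower, where edgeR gave 3527 higher and 3366 lower. The part of RNA quality, depth or culture in this split was not tested.

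The guides iMAE-1.1 and iMAE-1.2 were compared with SC replicates 3 to 6, all in the same library set. With edgeR and the set term, ANGPTL4 was called as higher with both guides, and VEGFA with iMAE-1.2 only. With iMAE-1.1, 1 of 7 ligands passed, against 1.79% of all 15254 genes (0.911% higher and 0.878% lower). With iMAE-1.2, 2 of 7 passed, against 2.73% (1.39% higher and 1.34% lower). The genes called were 273 with iMAE-1.1 and 417 with iMAE-1.2. For iMAE-1.1 they were 135 to 155 without any 1 of SC replicates 3 to 6, 177 without iMAE-1.1 replicate 1 and 171 without replicate 2. For iMAE-1.2 they were 201 to 223 without any 1 of these SC libraries and 222 without iMAE-1.2 replicate 4. ANGPTL4 had 2.12, 2.35, 0.942 and 2.24 CPM with iMAE-1.1, against 0.671, 0.734, 0.912 and 0.955 CPM in SC replicates 3 to 6. These levels rest on few counts: 33, 29, 15 and 50 with iMAE-1.1 and 11, 8, 14 and 17 in SC. Of the iMAE-1.1 libraries, 3 lay above every SC library of the set, and replicate 3 lay within their range. The log2 fold change was 1.21 ± 0.28 (adjusted p = 0.0298). With iMAE-1.2, ANGPTL4 had 2.03, 2.29, 1.80 and 2.33 CPM, all above the same SC libraries, and rose by 1.35 ± 0.28 (adjusted p = 0.011).

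VEGFA had 376, 438, 264 and 274 CPM with iMAE-1.2, against 184, 212, 194 and 228 CPM in SC replicates 3 to 6. All 4 iMAE-1.2 libraries lay above these SC libraries, and VEGFA rose by 0.72 ± 0.15 (adjusted p = 0.0213). With iMAE-1.1 VEGFA had 256, 317, 299 and 354 CPM, also above all 4, with a log2 fold change of 0.58 ± 0.15 that did not pass (adjusted p = 0.0746). PGF had 0.257, 0.487, 1.13 and 1.39 CPM with iMAE-1.1 (1.03 ± 0.50, adjusted p = 0.397) and 1.496, 1.58, 0.619 and 0.732 CPM with iMAE-1.2 (1.40 ± 0.49, adjusted p = 0.157). The iMAE-1.2 libraries lay above the 0.275 to 0.610 CPM of SC replicates 3 to 6, and the iMAE-1.1 libraries overlapped with them. VEGFC was at 30.9 to 33.7 CPM with iMAE-1.1 (0.25, adjusted p = 0.0948) and at 28.4 to 34.4 CPM with iMAE-1.2 (0.19, adjusted p = 0.184), and at 26.5 to 27.9 CPM in these SC libraries, with no overlap. VEGFB (0.30 and 0.26), ANGPT2 (0.05 and 0.17) and ANGPTL2 (1.22 and 1.49) did not pass with iMAE-1.1 or iMAE-1.2, with adjusted p of 0.157 to 0.959. ANGPT1 had 0 counts with either guide, which allows up to 0.0453 CPM for each group when 3 counts are taken as the floor.

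Of the 12 HIF-responsive genes tested, 2 rose with iMAE-1.1 and 4 with iMAE-1.2, and none fell. Of all genes tested, 0.911% were higher with iMAE-1.1 and 1.39% with iMAE-1.2. ADM, the vasodilator adrenomedullin, rose by 0.65 with iMAE-1.1 (adjusted p = 0.00191) and by 0.63 with iMAE-1.2 (adjusted p = 0.00213), and PFKFB4, a regulator of glycolysis, by 0.62 and 0.50 (adjusted p = 0.00251 and 0.00912). EPAS1, at 15.2 TPM with iMAE-1.1, 15.3 TPM with iMAE-1.2 and 15.4 TPM in SC replicates 3 to 6, did not pass (adjusted p = 0.995 and 0.941). PPARG, a nuclear receptor known to induce ANGPTL4, rose with iMAE-1.2 by 0.96 (adjusted p = 0.034) and did not pass with iMAE-1.1 (0.86, adjusted p = 0.075). ANGPTL4 rose in both metastatic derivatives versus 786-O. There PPARG fell by 1.06 in RNA-Seq_786-M1A (adjusted p = 0.000474) and rose by 0.73 in OS-LM1 (adjusted p = 0.0011). The part of PPARG in the ANGPTL4 levels was not tested. Of the 5 receptors tested none passed with either guide.

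Against all 6 SC libraries with no term for the set, ANGPTL4 gave 0.17 with iMAE-1.1 (adjusted p = 0.854) and 0.32 with iMAE-1.2 (adjusted p = 0.687), and VEGFA gave 0.55 with iMAE-1.2 (adjusted p = 0.0977), so no ligand passed. The ANGPTL4 call with iMAE-1.2 was kept in all 8 refits that left out 1 library. The ANGPTL4 call with iMAE-1.1 was lost without any 1 of SC replicates 3, 4, 5 and 6 or iMAE-1.1 replicates 1, 2 and 4, where the log2 fold change was 1.11 to 1.30 (adjusted p = 0.0562 to 0.111), and the VEGFA call with iMAE-1.2 without SC replicate 3 (adjusted p = 0.0672), SC replicate 5 (adjusted p = 0.0683) or iMAE-1.2 replicate 1 (adjusted p = 0.0647). The adjusted p over 17 alternatives was 0.0033 to 0.854 for ANGPTL4 with iMAE-1.1, 0.00181 to 0.687 for ANGPTL4 with iMAE-1.2, and 2.81e-05 to 0.559 for VEGFA with iMAE-1.2. For VEGFA with iMAE-1.1 it was 0.00213 (DESeq2) to 0.788, and VEGFA was called in 4 of the 17. Besides DESeq2 these were limma on log2(TPM + 1) (adjusted p = 0.0496) and log2(TPM + 0.1) (adjusted p = 0.0472) and the compared groups alone (adjusted p = 0.00461). In these limma and compared-group refits, ANGPTL4 with iMAE-1.1 lost its call (adjusted p = 0.0707, 0.05003 and 0.0586, in that order). Which ligand passed with iMAE-1.1 thus depended on the method.

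Between the 2 guides, iMAE-1.2 versus iMAE-1.1, edgeR called 0 of 7 ligands and 0 of 15254 genes (0%), and DESeq2 called 2 genes and no ligand. At an unadjusted p under 0.05, 218 genes and 0 ligands passed with edgeR. VEGFA differed by 0.14 ± 0.15, PGF by 0.37 ± 0.44 and ANGPTL4 by 0.15 ± 0.25 on the log2 scale, each with an adjusted p of 1. Over 11079 genes, deviations from the group means correlated at 0.33 to 0.687 between iMAE-1.1 replicates 3 and 4 and iMAE-1.2 replicates 1 and 2, and at 0.157 to 0.706 between iMAE-1.1 replicates 1 and 2 and iMAE-1.2 replicates 3 and 4. The other pairs correlated at -0.665 to -0.266. PGF was at 1.13 to 1.58 CPM in the first 4 of these libraries and at 0.257 to 0.732 CPM in the other 4. VEGFA was at 376 and 438 CPM in iMAE-1.2 replicates 1 and 2, against 264 and 274 CPM in replicates 3 and 4. In iMAE-1.1 replicates 3 and 4 it was at 299 and 354 CPM, overlapping with 256 and 317 CPM in replicates 1 and 2. ANGPTL4 overlapped between the first 4 and the other 4 libraries. The fit has no term for this pattern, which no label names, and its part in the guide comparisons was not tested.

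The guide iMAE-126 was compared with SC replicates 1 and 2. VEGFC fell, and the other 6 ligands tested did not pass, which is 1 of 7 against 16.7% of all 15254 genes (6.31% higher and 10.4% lower), so the count is close to the background. That background was 2550 genes, and it was 1677 and 712 without SC replicates 1 and 2, in that order, and 793 and 1090 without iMAE-126 replicates 1 and 2. VEGFC had 22.4 and 25.0 CPM with iMAE-126, against 29.9 and 32.3 CPM in SC replicates 1 and 2, and fell by 0.39 ± 0.10 on the log2 scale (adjusted p = 0.0136). Both iMAE-126 libraries were also below the other 4 SC libraries. The call was lost without SC replicate 2 (-0.33, adjusted p = 0.112) or iMAE-126 replicate 1 (-0.32, adjusted p = 0.123) and with no term for the set (-0.26, adjusted p = 0.085), in a range of 0.00332 to 0.123 over 13 alternatives. VEGFA had 372 and 306 CPM with iMAE-126, against 277 and 288 CPM in SC replicates 1 and 2 (0.27 ± 0.21, adjusted p = 0.425). VEGFB had 38.2 and 40.3 CPM with iMAE-126, against 34.1 and 30.1 CPM (0.29 ± 0.13, adjusted p = 0.149). With no term for the set, VEGFB was called as higher (0.45, adjusted p = 0.0301). With the compared groups alone, VEGFA (0.28, adjusted p = 0.0299) and VEGFB (0.30, adjusted p = 0.0456) were called as higher. PGF had 1.43 and 2.74 CPM with iMAE-126, against 2.18 and 2.15 CPM (-0.03, adjusted p = 0.974), and ANGPTL4 3.33 and 4.76 CPM, against 3.30 and 3.32 CPM (0.30, adjusted p = 0.539). ANGPT2 had 0.855 and 1.49 CPM with iMAE-126, against 1.73 and 2.02 CPM (-0.63 ± 0.32, adjusted p = 0.187). ANGPTL2 did not pass (-0.38, adjusted p = 0.82), and ANGPT1 had 0 counts with iMAE-126, against 4 counts in SC replicate 1.

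The counts with iMAE-126 that follow stand against 6.31% of all genes higher and 10.4% lower. Among the genes around the ligands, THBS1, the inhibitor thrombospondin-1, fell by 1.17 with iMAE-126 (adjusted p = 0.00039), the one of 6 inhibitors tested that passed. Of 10 genes of ligand processing, 4 fell and none rose, with ADAMTS1 at -0.46 (adjusted p = 0.00538) and HSPG2 (perlecan) at -0.41 (adjusted p = 0.0413). ETS1, an endothelial and tumour transcription factor, fell by 0.72 (adjusted p = 0.000454). Of 12 HIF-responsive genes, NDRG1 rose by 0.69 (adjusted p = 0.0258) and PDK1 fell by 0.52 (adjusted p = 0.0186). EPAS1 was at 45.2 TPM with iMAE-126 and 46.0 TPM in SC replicates 1 and 2 (adjusted p = 0.945).

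**Figure D4:**
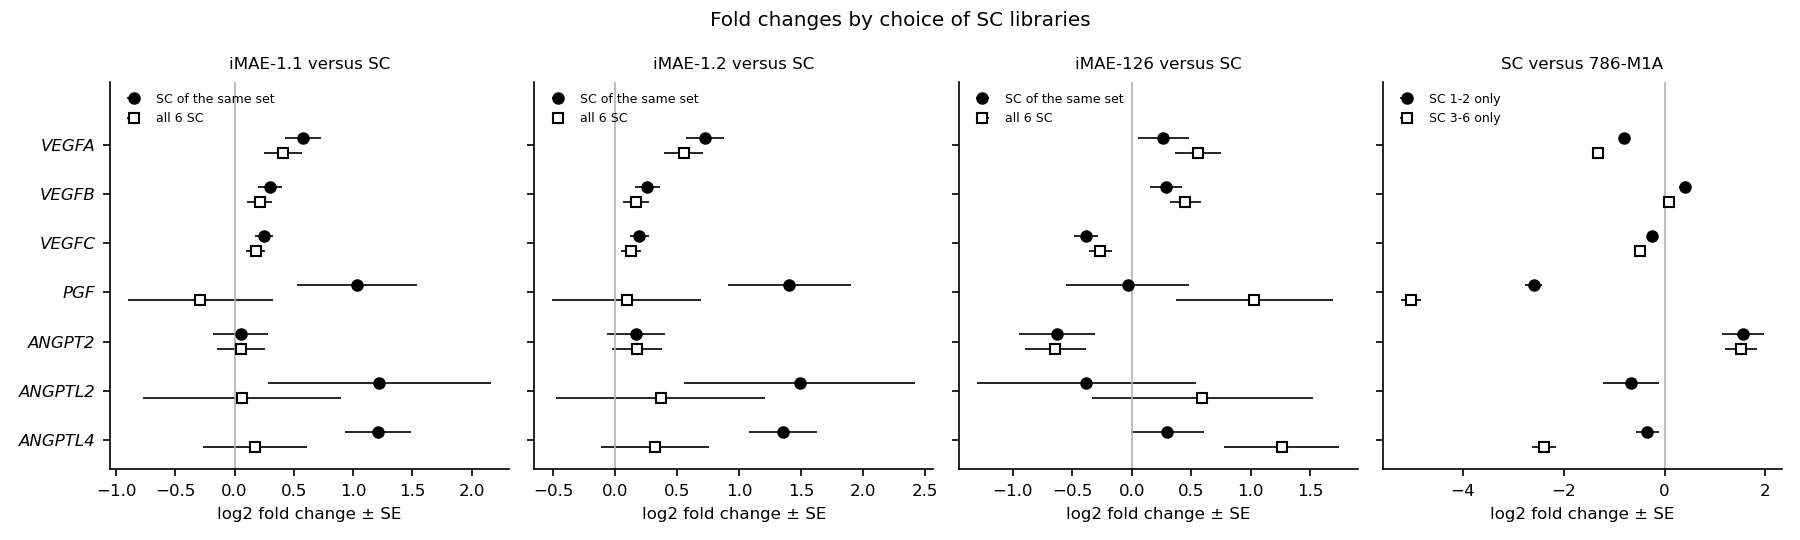
Log2 fold change with its SE (x axis, own scale per panel) for 7 ligands by choice of SC libraries. Filled circles use SC of the same library set for the 3 guides, or SC replicates 1 and 2 for SC versus RNA-Seq_786-M1A; open squares use all 6 SC libraries for the guides, or SC replicates 3 to 6. ANGPTL4 moves between 1.35 and 0.32 with iMAE-1.2 and between -0.34 and -2.39 for SC versus RNA-Seq_786-M1A, while ANGPT2 hardly moves.

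Genes whose group means on the log2 CPM scale were most like those of a ligand were ranked by Pearson correlation over the 7 groups. The ranking covered 12268 genes that reached a group mean of 5 CPM. The groups share parents, library sets and depth, so these values are descriptions. Nearest to VEGFA were ALDH1L2 (r = 0.98), VEPH1 (0.976) and GLTP (0.968). Nearest to VEGFC were TCF19 (0.998), AOX1 (0.993) and GATA2 (0.976). Nearest to VEGFB were APOL4 (0.96), GSG1 (0.96) and PTCSC3 (0.958). Among the ligands themselves, VEGFA had r = 0.519 with VEGFC and 0.254 with VEGFB, and VEGFB had -0.297 with VEGFC. PGF is left out because it reached that mean through RNA-Seq_786-M1A alone.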

How the data were processed

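RNA-seq of polyadenylated RNA was done on 22 libraries, with 9.06 to 52.7 expected counts per library in units of 1e6. Libraries were made from 1 stranded kit, per the labels' protocols, and Bowtie2, RSEM and the build hg19 are named in the submitters' processing notes, without versions or a strand setting. Per the file headers, the authors deposited for each gene an expected count, the number of its reads as RSEM estimates it. The deposited TPM was computed by the authors from these counts and gene lengths, per the file headers.

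Expected counts were rounded to whole numbers and tested on all genes with edgeR 4.0.16 (R 4.3.3), using TMM factors, a filterByExpr minimum count of 10 and robust quasi-likelihood fits; 72.7% of simulated 2-fold changes of iMAE-1.1 versus SC were recovered over 15024 genes. The fits were the 6 libraries of the lines, SC with RNA-Seq_786-M1A (8 libraries), and the 16 CRISPRi libraries with the library set as a term. CPM used TMM factors over all 22 libraries. The alternatives tried were RLE factors, a minimum count of 50, no filter, DESeq2 1.42.0, limma 3.58.1 on log2(TPM + 1) and log2(TPM + 0.1) with a mean TPM of at least 1, each replicate left out, a replicate block, the compared groups alone and no set term. Members, gene lists and the set term were chosen with earlier results of these data known. All 8 members were named by rule, with up to 4 called genes per list and direction. Intervals and floors cover counting error only.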

Additional observations from a re-analysis of the deposited data

Results flagged for a closer look

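In 2 of the 22 sets of 4 to 6 values tested (a ligand in a group), 1 library lay far from the others by Dixon's criterion, where chance gives about 1 in 20. ANGPTL4 in iMAE-1.1 replicate 3 was at 0.942 CPM, against 2.12 to 2.35 CPM in the other 3 libraries of that guide. ANGPT1 in SC replicate 1 was at 0.165 CPM (4 counts), against 0 in the other 5 SC libraries. With those 5 tied at 0, any count in replicate 1 would have been flagged. The rate of 1 in 20 therefore does not hold for ANGPT1 there, and that flag carries no weight.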

How the results depend on the processing

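Over 887 refits of single ligands in the comparisons, 783 kept direction and side of the threshold, 48 lost a call, 28 gained one and 28 changed sign, none of the last with a call before or after. Of the 25 ligand calls, 13 held under every alternative run, among them VEGFA, PGF and ANGPTL4 in RNA-Seq_786-M1A versus 786-O. The 13 include ANGPT1 in both comparisons with 786-O, where it could only be called as a fall. The cause of the following changes was not tested. With limma on log2(TPM + 1) and on log2(TPM + 0.1), ligands called were 3 and 3 in OS-LM1 versus 786-O and 5 and 5 in SC replicates 1 and 2 versus 3 to 6, with 5 ligands tested. The same refits called 9564 and 9430 of 13857 genes in OS-LM1 versus 786-O. Within SC they called 7257 and 7220 of 13504 genes. With the compared groups alone, 1 was called for iMAE-1.2 versus SC, 3 for iMAE-126 versus SC and 4 within SC. Of all genes, these refits called 339 of 14331, 3636 of 14941 and 7971 of 14646, in that order. DESeq2 called 2 ligands for iMAE-1.1 versus SC, and 482 of 15254 genes. With no term for the library set, 0 were called for iMAE-1.1 and 0 for iMAE-1.2 versus SC, and genes called fell to 69 and 110, where the term gave 273 and 417. Leaving out 1 replicate each gave 4 to 6 ligands for RNA-Seq_786-M1A versus 786-O, 3 to 6 for OS-LM1 versus 786-O, 2 to 4 for OS-LM1 versus RNA-Seq_786-M1A, 3 to 6 for SC versus RNA-Seq_786-M1A, 0 to 1 for iMAE-1.1, 1 to 2 for iMAE-1.2 and 0 to 1 for iMAE-126 versus SC, 0 for iMAE-1.2 set against iMAE-1.1, and 2 to 3 within SC. Genes called were 2259 to 2551 in RNA-Seq_786-M1A versus 786-O without 1 replicate and 5064 with all, and 8733 with those groups alone. In iMAE-1.2 versus SC the limma split of genes called was 118 higher and 231 lower, and edgeR gave 212 higher and 205 lower.

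No label pairs the replicate numbers. With a replicate block, 0 ligands were called for each of the 3 guides versus SC, with log2 fold changes of 1.21 for ANGPTL4 with iMAE-1.1, 1.40 and 0.65 for ANGPTL4 and VEGFA with iMAE-1.2 and -0.39 for VEGFC with iMAE-126; 5 for RNA-Seq_786-M1A versus 786-O, without ANGPTL2 (1.70, adjusted p = 0.0683), and 5 for OS-LM1 versus 786-O, without VEGFB (0.38, adjusted p = 0.0814), 3 for OS-LM1 versus RNA-Seq_786-M1A and 5 for SC versus RNA-Seq_786-M1A; genes called were 6, 10 and 1388 for the 3 guides. Deviations of same-numbered libraries correlated at -0.478 to 0.131, and none of the 4 numbers of iMAE-1.2 and iMAE-1.1 matched best, while differently numbered libraries of these guides correlated at up to 0.706. For OS-LM1 versus RNA-Seq_786-M1A (correlation -0.208), a crossed block on those groups alone, chosen after seeing the data, called 3 ligands and the block as numbered called 1.

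Self-tests recovered 30.3% of 1.5-fold and 92.3% of 4-fold changes in RNA-Seq_786-M1A versus 786-O over 15986 genes, and 62.7% of 1.5-fold changes in iMAE-1.1 versus SC over 15024 genes, so many 1.5-fold differences would be missed; the part of depth and of the number of libraries was not tested.

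The sign changes were all in values that did not pass. A minimum count of 50 gave ANGPTL4 0.030 in OS-LM1 versus RNA-Seq_786-M1A. With log2(TPM + 1) and log2(TPM + 0.1), VEGFB was -0.021 and -0.022 in SC versus RNA-Seq_786-M1A. DESeq2 and RLE factors gave ANGPT2 0.0023 and 0.0067 within SC, and the block gave it -0.058 for iMAE-1.1. With no set term PGF was -0.288 for iMAE-1.1 and 1.028 for iMAE-126, and ANGPTL2 0.594 for iMAE-126. Without 1 library, ANGPT2 ranged from -0.523 to 0.019 in RNA-Seq_786-M1A versus 786-O, from -0.116 to 0.121 within SC and from -0.033 to 0.19 for iMAE-1.1, where ANGPTL2 ranged from -0.102 to 1.61. In OS-LM1 versus RNA-Seq_786-M1A, ANGPTL2 ranged from -0.402 to 0.763 and ANGPTL4 from -0.469 to 0.289. For iMAE-126, PGF ranged from -0.599 to 0.331 and ANGPTL2 from -0.845 to 0.152. For iMAE-1.2 set against iMAE-1.1, VEGFA ranged from -0.010 to 0.237, VEGFB from -0.096 to 0.045, ANGPT2 from -0.020 to 0.202, ANGPTL2 from -0.279 to 1.59 and ANGPTL4 from -0.079 to 0.248.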

Other observations

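The transcript-weighted length that RSEM gave VEGFA moved with the library, being 3249 and 3201 bases in RNA-Seq_786-M1A, 3228 and 3140 bases in 786-O, 2916 and 2824 bases in OS-LM1, 2940 to 3051 bases in set A and 2771 to 2843 bases in set B.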
